A study of Rattus norvegicus with 48 samples.

Results

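Collagen transcripts of the rat lung were followed across 8 groups of animals that had breathed oil vapor or filtered air. The members were all gene symbols made of Col, a number, the letter a and a number, kept where their mean over the 48 libraries was at least 0.5 CPM, counts scaled to the library total. This gave 37 of the 30045 genes in the count tables, 9 of them fibrillar, 8 of the basement membrane and 20 of other kinds. The rule used no difference between groups. Male Sprague-Dawley rats were kept in whole-body chambers for 6 h per day at 300 ppm oil vapor, and a piece of lung was taken from each for RNA sequencing.

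The groups of 6 rats each were as follows. In the repeated schedule, rats received oil vapor on 4 days per week for 4 weeks, 16 days in all, or filtered air, and were killed 28 days or 1 day after the last exposure. In the single schedule, rats received oil vapor or filtered air on 1 day and were likewise killed 28 days or 1 day later. Every schedule and time had its own air controls, and all rats were of the same strain and sex. Rats were housed in pairs, and the labels did not say which shared a cage. The labels gave a body weight of about 200 to 250 g but no age, so the time after exposure cannot be told apart from the animals' age and the date of sampling.

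Collagens are the main structural proteins of the extracellular matrix. Their alpha chains fold into a helix in the endoplasmic reticulum, and the fibrillar kinds are trimmed outside the cell, packed into fibrils and crosslinked by lysyl oxidases. Type IV collagen instead forms the sheet-like network of basement membranes, which in the alveolus lies between the epithelium and the capillary, and type VI collagen forms beaded filaments that link cells to the surrounding matrix. In the lung these transcripts come chiefly from fibroblasts and other mesenchymal cells, with type IV chains also from endothelium and epithelium, and they are made most actively while the lung still grows.

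The 48 libraries held between 1.54 and 7.16 M counts, on average 5.18 M (SD 1.02). The library of animal 43, in the repeated oil vapor group at day 1, stood apart: it was the shallowest, held 30019 counts of the erythroid gene Alas2, and had 1091 CPM of Col3a1 where the other 5 libraries of its group had at least 2498 CPM. Values without it are given beside the results it moved most. The highest Alas2 count of a group fell on the animal of the same rank by number in both schedules in 4 of 4 group pairs, with near-equal counts such as 30019 and 27026 in animals 43 and 5. Of the 37 collagens, 0 had their highest animal at the same rank in 4 of 4 pairs, 5 did in 3, 6 in 2, 15 in 1 and 11 in 0. The 5 were Col4a1, Col4a2, Col4a5, Col6a5 and Col16a1. The number of matches that chance would give was not worked out, so these counts do not show the collagens free of the match. Alas2 was not alone in its match between the schedules. When animals were matched by rank of number within treatment and day, 24 pairs in all, 74 of 10691 genes with a mean above 50 counts in each schedule had log2 counts with a Pearson r above 0.9 between the schedules. They were led by Alas2 (0.998) and held the erythroid gene Ahsp (0.989) and the liver gene Alb (0.978), whereas the median over all genes was 0.28. The 27 collagens that deep had r values between -0.36 and 0.54, with a median of 0.31 and 0 above 0.9. The matched libraries share treatment and day, and the group differences enter these values. The 2 tables may therefore not be independent. The main fits of all 48 libraries below take each library as independent, and comparisons between the schedules carry that limit. Whether the schedules share material was not tested, and one schedule is not given as independent support for the other. The alveolar type 2 markers, 6 genes led by surfactant proteins, summed to between 6270 and 18735 CPM in all libraries, which fitted the labelled tissue.

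The most abundant fibrillar row was Col3a1, the chain of type III collagen of vessel walls and alveolar septa, at a mean of 2865 CPM over the 48 libraries. Col5a2 and Col5a1, chains of type V collagen that controls fibril width, averaged 538 and 205 CPM, and Col1a1, the alpha 1 chain of type I collagen, 231 CPM. Col3a1 alone made up 73.9% of the fibrillar counts and 26.9% of all collagen counts. Among basement membrane chains Col4a1 and Col4a2 led with 1395 and 941 CPM, and among the others Col6a3, Col6a5 and Col12a1 with 998, 617 and 477 CPM. These are levels per library total and not per transcript length, so they do not rank the genes by molecules.

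Some rows were too low to read. Of the kept members, Col9a3, Col22a1 and Col11a1 averaged 0.559, 0.727 and 0.894 CPM and did not pass the filter on low counts of any fit, which left 34 tested members, 8 fibrillar, 8 of the basement membrane and 18 others. Just outside the minimum were Col28a1 at 0.359 CPM and Col25a1 at 0.197 CPM. The row Col1a2, the partner chain of Col1a1, averaged 0.0272 CPM and reached at most 2 counts. A further row named Col1a2-2, outside the pattern, ran from 0.698 to 118 CPM and spread widely within groups. In oil vapor lungs at day 28 it had 6.14 to 53.2 CPM in the repeated and 1.14 to 58.9 CPM in the single schedule. No test of it between groups is given here. The alpha 2 chain of type I collagen is therefore not described here.

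The collagen transcripts were most abundant 1 day after the single schedule, in oil vapor and air lungs alike, and lower at the other schedule and time points. Collagens took 0.996 ± 0.0765% of all counts in single-schedule oil vapor lungs at day 28, against 1.46 ± 0.149% in those at day 1, and 0.924 ± 0.104% in air lungs at day 28, against 1.42 ± 0.122% in air lungs at day 1 (SD, n = 6 each). In the repeated schedule the shares were 0.899 ± 0.0423% in oil vapor lungs at day 28, against 0.967 ± 0.274% in those at day 1, and 0.858 ± 0.0428% in air lungs at day 28, against 0.995 ± 0.0971% in those at day 1. Without animal 43 the repeated oil vapor lungs of day 1 had a share of 1.08 ± 0.0506% (SD, n = 5), above and no longer below the mean of their air lungs. The fibrillar class moved most: its summed level was 3253 ± 358 CPM in single-schedule oil vapor lungs at day 28, against 5897 ± 690 CPM at day 1, and 3099 ± 477 CPM in air lungs at day 28, against 6133 ± 713 CPM at day 1. Fibrillar chains were thus 32.6 ± 1.15% and 33.4 ± 1.72% of collagen counts in the oil vapor and air lungs of day 28, against 40.5 ± 1.17% and 43.2 ± 2.07% in those of day 1. In the repeated schedule they were 32.2 ± 1.25% in oil vapor lungs at day 28, against 36.2 ± 2.22% in those at day 1, and 31.4 ± 2.01% in air lungs at day 28, against 35.6 ± 1.40% in those at day 1. In bulk lung, fewer collagen-making cells and less collagen RNA per cell cannot be told apart.

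**Figure D1:**
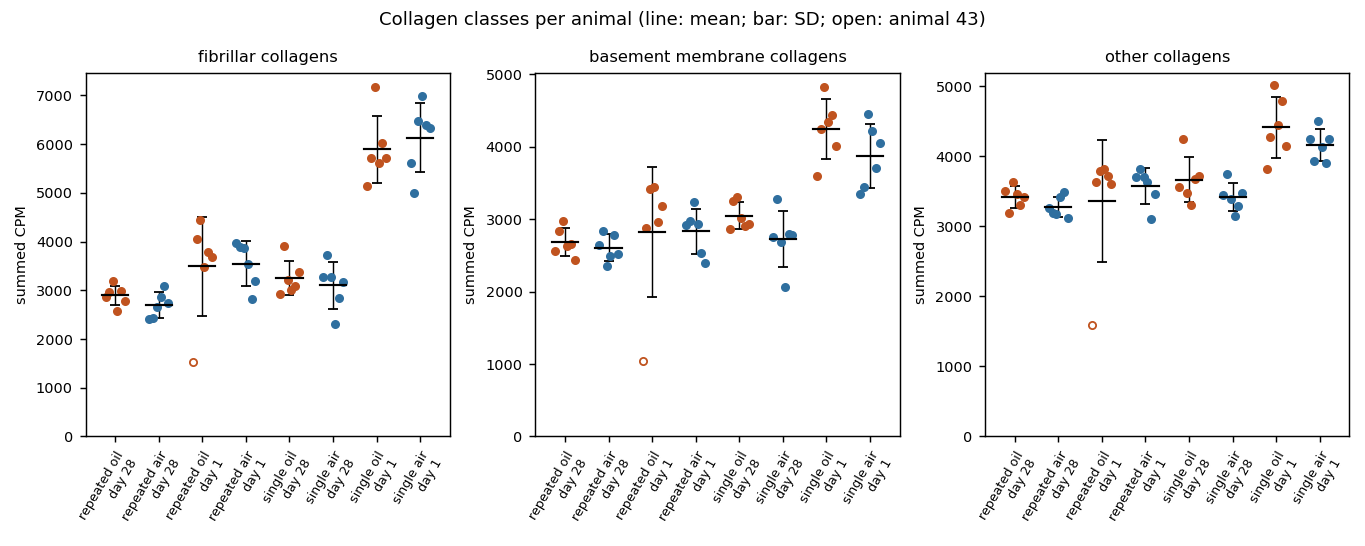
Summed CPM (counts scaled to the library total, vertical axis from 0) of the fibrillar, basement membrane and other collagens in each animal of the 8 groups on the horizontal axis, oil vapor in orange and air in blue, with the mean as a line and the SD as a bar. In all 3 classes the single-schedule day 1 groups stand highest, and the open point of animal 43 lies far below the rest of its group.

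At day 28 against day 1 of the single schedule, 12 of the 34 tested collagens fell in oil vapor lungs and 0 rose, where 4.98% of all 14820 genes tested fell and 4.45% rose. In air lungs 14 fell and 0 rose, where 2.24% of all genes fell and 1.01% rose. The calls are from edgeR's quasi-likelihood test at an adjusted p below 0.05, adjusted by Benjamini-Hochberg over all genes tested. The median log2 fold change of the 34 was -0.20 in oil vapor and -0.37 in air lungs, beside -0.00 and 0.00 over all genes. The oil vapor and air animals are separate, and the 12 genes that fell in oil vapor lungs were 100% of that list and 85.7% of the air list, which held Col14a1 and Col18a1 besides. Without any overlap in CPM between the groups, 10 collagens lay lower at day 28 in oil vapor lungs (2.12% of all genes did) and 10 in air lungs (1.90% of all genes), and 0 lay higher, as 2.53% of all genes did in oil vapor and 0.479% in air lungs.

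The fibrillar chains that fell in both treatments were Col3a1, Col1a1, Col5a1 and Col5a2, 4 of the 8 tested. Col3a1 had 2076, 2288 and 2871 CPM as the lowest, median and highest of the 6 oil vapor lungs at day 28, against 3933, 4469 and 5677 CPM in those at day 1. In air lungs it had 1666, 2311 and 2725 CPM at day 28, against 3749, 4866 and 5195 CPM at day 1. No day 28 lung reached the lowest day 1 lung. The log2 fold change was -0.97 (SE 0.10, adjusted p = 1.42e-06) in oil vapor and -1.04 (SE 0.10, adjusted p = 1.65e-06) in air lungs.

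Col1a1, the chain most often followed as a sign of fibril deposition, changed furthest in air lungs. It had 119, 172 and 189 CPM in oil vapor lungs at day 28, against 240.1, 346 and 387 CPM at day 1, and 98.8, 180.4 and 203 CPM in air lungs at day 28, against 381, 458 and 713 CPM at day 1. The groups of day 28 and day 1 did not overlap in either treatment. It fell by 1.00 (SE 0.16, adjusted p = 0.000264) on the log2 scale in oil vapor lungs and by 1.54 (SE 0.16, adjusted p = 2.72e-06) in air lungs.

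Both type V chains fell as well. Col5a1 fell by 0.65 (SE 0.11, adjusted p = 0.000607) in oil vapor and by 0.69 (SE 0.11, adjusted p = 0.000697) in air lungs, and its highest day 28 value lay below its lowest day 1 value, at 213 against 235 CPM in oil vapor lungs and at 209.7 against 226 CPM in air lungs. Col5a2 fell by 0.40 (SE 0.07, adjusted p = 0.000715) in oil vapor and by 0.39 (SE 0.07, adjusted p = 0.00194) in air lungs. The 4 fibrillar members that did not pass were low rows of at most 24.2 CPM in any library. Among them Col24a1, a fibrillar chain best known from bone, had log2 values of -0.19 (adjusted p = 0.748) in oil vapor and -0.99 (adjusted p = 0.0682) in air lungs, and passed in air lungs without animal 9 (adjusted p = 0.0373) or animal 17 (adjusted p = 0.0499).

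**Figure D2:**
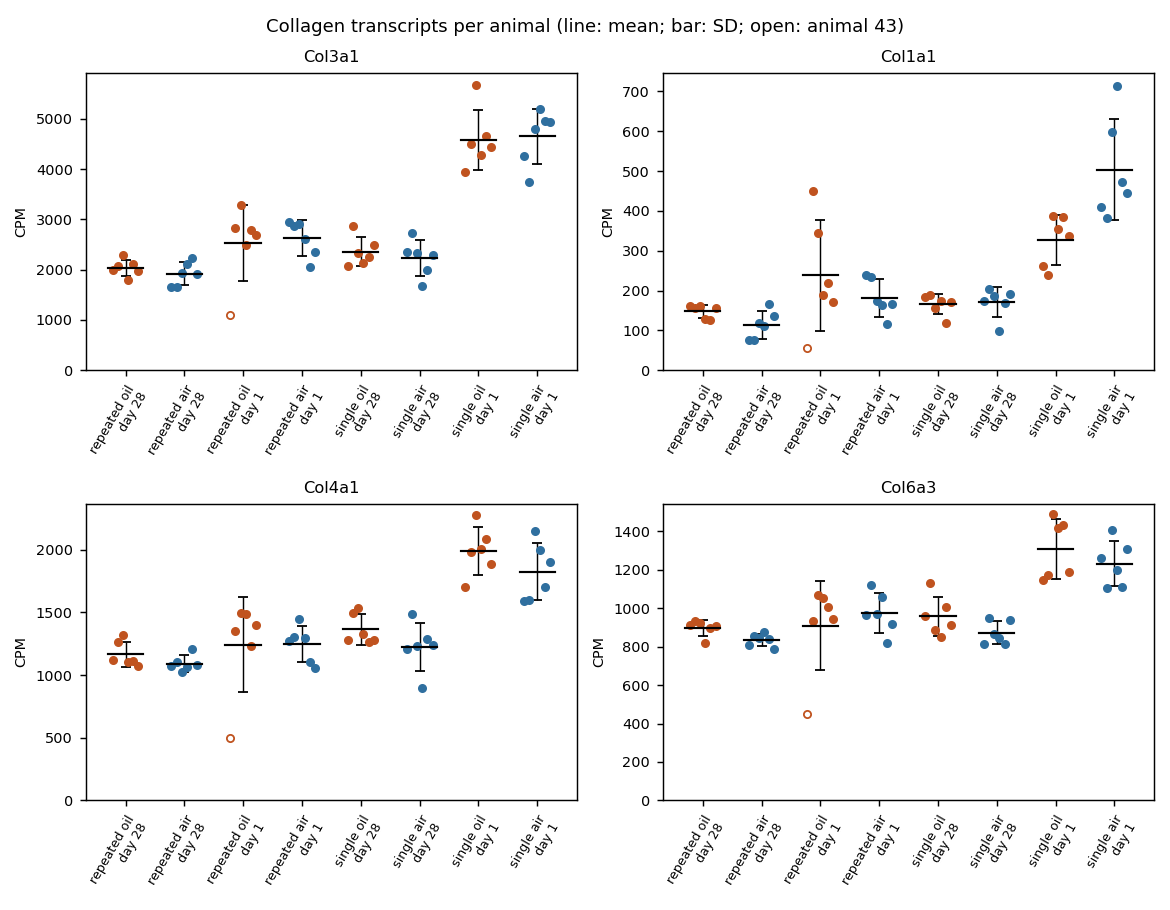
CPM (vertical axes from 0) of Col3a1, Col1a1, Col4a1 and Col6a3 in each animal of the 8 groups on the horizontal axis, oil vapor in orange and air in blue, with the mean as a line, the SD as a bar and animal 43 as an open point. The 12 day 1 animals of the single schedule lie above all day 28 animals of that schedule for Col3a1, from 3749 CPM upwards against at most 2871 CPM.

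The type IV chains are encoded as gene pairs that lie head to head, each pair sharing the DNA between its starts. In the RefSeq table of the assembly GRCr8 the starts of Col4a1 and Col4a2 lie 77 bases apart, those of Col4a3 and Col4a4 413 bases apart and those of Col4a5 and Col4a6 1415 bases apart. In the single schedule the first and the last pair passed the test over time and the middle pair did not. The pairs were not tested against each other, and a part of the promoter in this was not tested. The promoter windows of the plus-strand partners are shown as a description. Each runs 5′ to 3′ on the plus strand from 250 bases before to 50 bases after the start, and the first holds the start of Col4a2 as well. Capitals mark CCAAT and GGGCGG on either strand, whose matches do not overlap each other here.
Col4a1, chr16:84885347-84885646: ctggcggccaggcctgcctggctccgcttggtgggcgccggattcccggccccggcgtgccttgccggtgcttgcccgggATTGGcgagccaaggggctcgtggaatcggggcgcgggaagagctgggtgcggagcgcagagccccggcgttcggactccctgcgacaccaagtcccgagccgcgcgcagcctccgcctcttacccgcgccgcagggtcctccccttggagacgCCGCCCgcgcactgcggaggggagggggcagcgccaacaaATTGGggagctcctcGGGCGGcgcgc
Col4a3, chr9:91323740-91324039: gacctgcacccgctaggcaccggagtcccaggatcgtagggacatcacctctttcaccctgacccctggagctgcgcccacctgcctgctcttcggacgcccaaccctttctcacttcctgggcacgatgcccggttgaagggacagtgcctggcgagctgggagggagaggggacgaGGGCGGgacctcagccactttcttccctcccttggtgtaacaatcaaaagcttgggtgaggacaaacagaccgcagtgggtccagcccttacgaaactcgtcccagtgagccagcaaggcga
Col4a5, chrX:109907109-109907408: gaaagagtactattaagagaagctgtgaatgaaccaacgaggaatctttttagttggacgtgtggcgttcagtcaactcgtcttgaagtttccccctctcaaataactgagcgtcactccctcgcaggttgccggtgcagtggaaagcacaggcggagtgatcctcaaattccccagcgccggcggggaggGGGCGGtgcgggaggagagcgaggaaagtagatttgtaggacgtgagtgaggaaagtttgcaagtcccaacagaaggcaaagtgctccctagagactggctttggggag
The Col4a1 window held 2 matches to CCAAT and 2 to GGGCGG, while the Col4a3 and Col4a5 windows held 0 and 1 each. None of the 3 held TATAAA. A window was in the table for 30 of the 37 members, and Col1a1 and Col3a1 were not among them. Among the 30, CCAAT was in 8 (26.7%, against 37.5% of all 33469 windows), GGGCGG in 19 (63.3%, against 33.1%) and TATAAA in 2 (6.67%, against 14.2%). A member counted if any of its windows held the motif, whereas all windows were counted singly, so the shares are not of like units. A match is a description of the letters and not a binding site.

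In the single schedule, Col4a1 and Col4a2, the chains of the network found in nearly every basement membrane, fell together. Col4a1 had 1264, 1305 and 1539 CPM in oil vapor lungs at day 28, against 1703, 1995 and 2280.4 CPM at day 1, and 895, 1237 and 1489.8 CPM in air lungs at day 28, against 1594, 1803 and 2154 CPM at day 1. No day 28 lung reached a day 1 lung of its treatment. The log2 fold change was -0.56 in oil vapor (SE 0.09, adjusted p = 0.000321) and -0.56 in air lungs (SE 0.09, adjusted p = 0.000677). Col4a2 fell by 0.56 (SE 0.09, adjusted p = 0.000253) in oil vapor and by 0.48 (SE 0.09, adjusted p = 0.00237) in air lungs.

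Col4a5, a chain of the specialised network of alveolar basement membrane, and its neighbour Col4a6 fell as well. Col4a5 had 260.1, 297 and 307 CPM in oil vapor lungs at day 28, against 357, 408 and 422 CPM at day 1, and 212, 270.3 and 305 CPM in air lungs at day 28, against 326, 395 and 440.1 CPM at day 1, again without overlap. Its log2 fold change was -0.49 (SE 0.07, adjusted p = 5.57e-05) in oil vapor and -0.50 (SE 0.07, adjusted p = 0.000104) in air lungs. Col4a6 fell by 0.30 (SE 0.08, adjusted p = 0.014) in oil vapor and by 0.38 (SE 0.08, adjusted p = 0.00695) in air lungs. In a fit of all 48 libraries its call in oil vapor lungs was lost (adjusted p = 0.0611).

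The middle pair did not pass the test, although its chains assemble with the Col4a5 product. Col4a3 had 282, 298 and 332 CPM in oil vapor lungs at day 28, against 279, 317 and 349 CPM at day 1, and 208, 249.7 and 321 CPM in air lungs at day 28, against 272, 304 and 355 CPM at day 1. The oil vapor groups overlapped over most of their range, and the air groups overlapped in part. The log2 values were -0.08 (SE 0.08, adjusted p = 0.556) in oil vapor and -0.24 (SE 0.08, adjusted p = 0.103) in air lungs, and those of Col4a4 were -0.11 (SE 0.07, adjusted p = 0.397) in oil vapor and -0.18 (SE 0.08, adjusted p = 0.223) in air lungs. Whether the pairs differ from each other was not tested. Without air animal 18 of day 28, Col4a3 passed in air lungs at -0.30 (adjusted p = 0.0188).

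**Figure D3:**
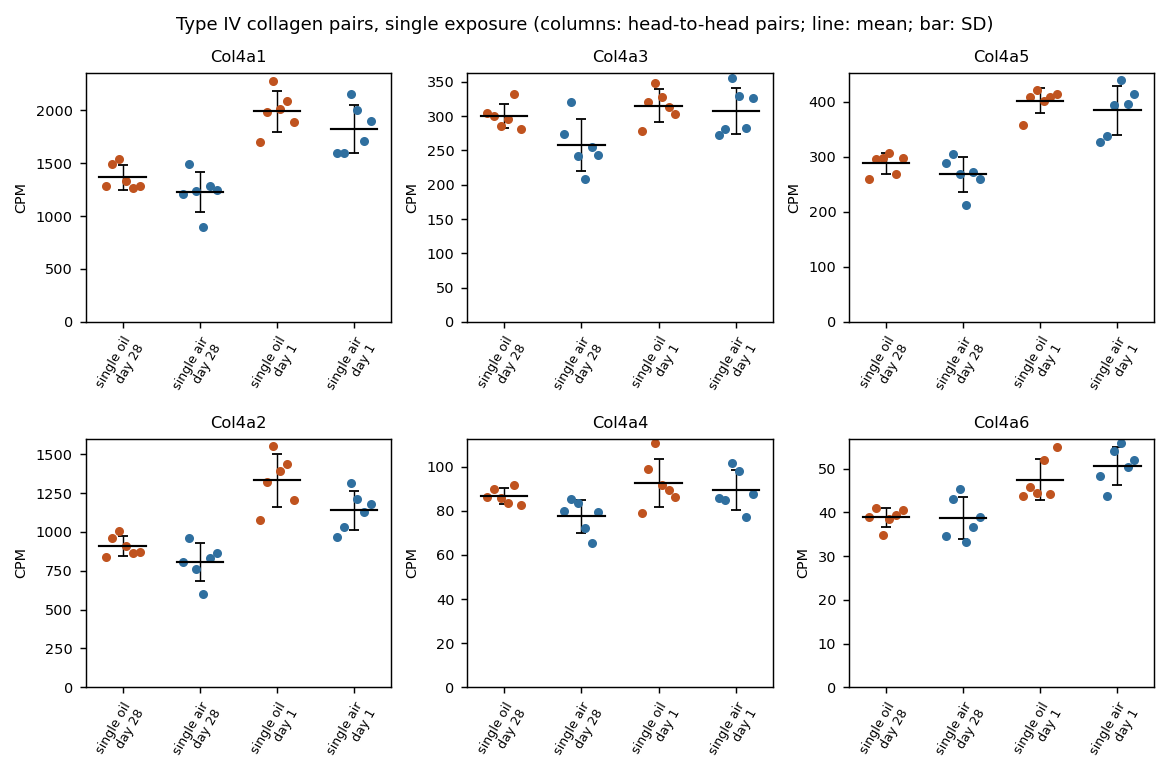
CPM (vertical axes from 0) of the 6 type IV chains in each animal of the single schedule, oil vapor in orange and air in blue, with head-to-head partners above each other, the mean as a line and the SD as a bar. The day 28 means of all 6 chains lie below those of day 1 in both treatments. The groups of the 2 times overlap for Col4a3 and Col4a4 in both treatments and for Col4a6 in air lungs.

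Col18a1, the basement membrane collagen from which endostatin is cut, fell in air lungs by 0.42 (SE 0.09, adjusted p = 0.0105) and had a value of -0.12 (SE 0.09, adjusted p = 0.459) in oil vapor lungs. In a fit of the 12 air libraries alone the call was lost (adjusted p = 0.0585). The difference between these treatments, 0.30 (SE 0.13), had an adjusted p of 0.608. Col15a1, a collagen of the zone next to basement membranes, ranged from 0.187 to 17.8 CPM within the oil vapor lungs of day 28 alone, against 0 to 13.5 CPM at day 1, too wide a spread to read a difference from (SE 0.71).

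Of the 6 type VI chains, 4 fell in both treatments. Col6a3, the large chain whose end is released as endotrophin, had 848, 937 and 1132 CPM in oil vapor lungs at day 28, against 1148, 1303 and 1492 CPM at day 1, and 813, 855 and 949 CPM in air lungs at day 28, against 1105, 1229 and 1407 CPM at day 1. The times did not overlap in either treatment, and the log2 fold changes were -0.46 (SE 0.08, adjusted p = 0.000592) in oil vapor and -0.48 (SE 0.08, adjusted p = 0.0008) in air lungs. Col6a1 and Col6a2, its constant partners, fell by 0.38 and 0.39 in oil vapor and both by 0.37 in air lungs. Col6a6, a chain related to Col6a3, fell by 0.45 in oil vapor and by 0.44 in air lungs.

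Col6a5, another chain related to Col6a3, did not pass in either treatment. It had 499.9, 656 and 835 CPM in oil vapor lungs at day 28, against 511, 631 and 789 CPM at day 1, and 541, 629 and 682 CPM in air lungs at day 28, against 539, 620 and 661 CPM at day 1. The groups overlapped almost wholly, with log2 values of 0.05 (SE 0.11, adjusted p = 0.821) in oil vapor and 0.02 (SE 0.11, adjusted p = 0.951) in air lungs. Col6a4, a chain of the same kind, had log2 values of 0.08 (SE 0.28) in oil vapor and 0.39 (SE 0.29) in air lungs.

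Among the remaining collagens, Col14a1, which sits on the surface of fibrils, was the only call. It fell in air lungs by 0.64 (SE 0.13, adjusted p = 0.00556), with 43.5, 57.7 and 68.1 CPM at day 28, against 77.1, 88.8 and 106 CPM at day 1. In oil vapor lungs, where the groups overlapped, its log2 value was -0.14 (SE 0.13, adjusted p = 0.549). The abundant fibril-surface collagen Col12a1 had values of -0.21 (SE 0.09, adjusted p = 0.15) in oil vapor and -0.09 (SE 0.09, adjusted p = 0.698) in air lungs. Of 3 transmembrane collagens and of 3 short chain and anchoring collagens, 0 passed in either treatment, at smallest adjusted p of 0.166 and 0.107. Col16a1, a further fibril-associated chain, did not pass in oil vapor lungs (-0.38, SE 0.14, adjusted p = 0.0806) but did so with limma-voom (-0.44, adjusted p = 0.0281), without animal 5 (-0.45, adjusted p = 0.0425) or without animal 28 (-0.46, adjusted p = 0.0438).

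Genes that build and finish collagen were also tested at day 28 against day 1 of the single schedule. Of 11 tested genes of propeptide trimming and crosslinking, 7 fell in oil vapor and 6 in air lungs and 0 rose, with medians of -0.42 in oil vapor and -0.48 in air lungs. Loxl2, a lysyl oxidase that crosslinks collagen, fell by 1.00 (adjusted p = 4.73e-07) in oil vapor and by 0.91 (adjusted p = 2.72e-06) in air lungs. Adamts2, which removes the amino propeptide of fibrillar collagens, fell by 0.68 in oil vapor and 0.77 in air lungs. Loxl1, a lysyl oxidase of elastic fibers, fell by 0.83 in oil vapor and 0.67 in air lungs. Of 20 tested genes of chain synthesis and folding, 7 fell and 2 rose in oil vapor lungs, and 5 fell and 0 rose in air lungs. The collagen chaperone Serpinh1 fell by 0.43 in oil vapor and 0.50 in air lungs, and the prolyl isomerase Fkbp10 by 0.57 in oil vapor and 0.38 in air lungs. The prolyl hydroxylase subunits P4ha1 and P4ha2 rose in oil vapor lungs, P4ha1 by 0.43 and P4ha2 by 0.38. Their change in oil vapor minus that in air lungs did not pass edgeR's quasi-likelihood test. It was 0.25 (adjusted p = 0.725) for P4ha1 and 0.35 (adjusted p = 0.604) for P4ha2.

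Of 10 genes of fibril binding and assembly, 8 fell and 1 rose in oil vapor lungs, and 7 fell and 0 rose in air lungs. Fbn1, the main microfibril protein, fell by 0.72 in oil vapor and 0.71 in air lungs, and the collagen-binding Sparc by 0.67 in oil vapor and 0.60 in air lungs. The matricellular Thbs2 fell by 1.13 in oil vapor and 1.03 in air lungs. Dcn, a small proteoglycan on fibrils, rose in oil vapor lungs by 0.75 (adjusted p = 0.00227). Its change in oil vapor minus that in air lungs was 0.84 and did not pass (edgeR's quasi-likelihood test, adjusted p = 0.291). Of 10 breakdown and uptake genes, 4 fell in oil vapor and 2 in air lungs and 0 rose, among them the membrane collagenase Mmp14, by 0.62 in oil vapor and 0.60 in air lungs, and the gelatinase Mmp2, by 0.25 in oil vapor and 0.49 in air lungs. Of 7 collagen receptors only the integrin chain Itga2 passed, with a fall of 0.69 in oil vapor and 0.31 in air lungs. Of 10 fibrogenic signal genes, 4 fell and 1 rose in oil vapor lungs, and 2 fell and 1 rose in air lungs. The growth factor Tgfb3 fell by 0.45 in oil vapor and 0.44 in air lungs, and the receptor Pdgfrb of mural cells by 0.32 in oil vapor and 0.27 in air lungs. Pdgfra, the related receptor of fibroblasts, rose by 0.54 in oil vapor and 0.39 in air lungs.

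Some cell markers moved with these results. Of 12 cell division genes, 11 fell in oil vapor and 7 in air lungs. Their summed level was 102 to 144 CPM in oil vapor lungs at day 28, against 202 to 315 CPM at day 1, and 118 to 162 CPM in air lungs at day 28, against 201 to 289 CPM at day 1. Of 10 fibroblast markers, 3 rose and 1 fell in oil vapor lungs and 2 rose and 2 fell in air lungs, and they summed to between 1107 and 1341 CPM in oil vapor lungs at day 28, against 949.8 to 1137 CPM at day 1, and 1027 to 1179 CPM in air lungs at day 28, against 936 to 1178 CPM at day 1. Inmt rose in both, by 1.26 in air lungs, and Lum fell by 0.39 in oil vapor and 0.55 in air lungs. Dcn, Lum and Pdgfra stand both here and in the lists above. Of 6 smooth muscle, 7 mesothelial and 6 alveolar type 2 markers 0 passed in either treatment, and of 6 endothelial markers only Tek passed, with a rise of 0.33 in oil vapor and 0.31 in air lungs. Of 6 alveolar type 1 markers 3 rose in oil vapor and 0 passed in air lungs.

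Transcripts of other tissues also differed. Of 7 erythroid markers 6 fell in oil vapor lungs, where they summed to between 1128 and 2592 CPM at day 28, against 2504 to 13900.4 CPM at day 1, and 1 fell in air lungs, at 2267 to 8794 CPM at day 28, against 2962 to 6493 CPM at day 1. Of 5 liver markers 4 fell in oil vapor lungs, at 36.6 to 61.0 CPM at day 28, against 49.4 to 379.9 CPM at day 1, and 1 rose in air lungs, at 64.2 to 748 CPM at day 28, against at most 76.3 CPM at day 1. Of 8 cardiac, 3 skeletal muscle and 6 ribosomal protein genes and 1 squamous gene, 0 passed. Of the 8 airway cartilage markers 7 averaged under 1 CPM in each of the 4 single-schedule groups, and Sox9, the 1 that was tested, rose in oil vapor lungs by 0.95. For Sox9 the change in oil vapor minus that in air lungs was 0.39 and did not pass (edgeR's quasi-likelihood test, adjusted p = 0.862). The part of these cells and tissues in the collagen result was not tested. Without the 4 libraries richest in marrow or liver transcripts (animals 5, 17, 43 and 82) 13 collagens fell in oil vapor lungs of the single schedule, where 4.53% of all genes did, and 14 in air lungs, where 2.03% did.

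In the repeated schedule the same interval gave no called collagen. At day 28 against day 1, edgeR's quasi-likelihood test called 0 of the 34 in oil vapor lungs, where 0.0933% of all genes fell and 0.247% rose, and 0 in air lungs, where 0.0600% fell and 0.267% rose. At an unadjusted p below 0.05 there were 6 of 34 collagens in oil vapor lungs, beside 15.0% of all genes, and 7 in air lungs, beside 10.7%. DESeq2 called 1 in oil vapor lungs (2.07% of all genes) and 0 in air lungs, and limma-voom called 3 in oil vapor lungs (1.55% of all genes) and 2 in air lungs (1.63%). The medians were -0.09 in oil vapor and -0.07 in air lungs, beside -0.01 and -0.00 over all genes.

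Col3a1 had 1801, 2033 and 2289 CPM in repeated oil vapor lungs at day 28, against 1091, 2735 and 3281 CPM at day 1, the 1091 CPM being animal 43. In repeated air lungs it had 1655, 1929 and 2234 CPM at day 28, against 2056, 2738 and 2949 CPM at day 1. The log2 values were -0.34 (SE 0.13, adjusted p = 0.213) in oil vapor and -0.41 (SE 0.13, adjusted p = 0.193) in air lungs. Those of Col1a1 were -0.70 (SE 0.27, adjusted p = 0.228) in oil vapor and -0.64 (SE 0.28, adjusted p = 0.415) in air lungs, and those of Col4a1 -0.12 and -0.16 (SE 0.12 each). Without animal 43, 5 collagens fell in oil vapor lungs, where 0.437% of all genes did, namely Col3a1 by 0.46 (adjusted p = 0.0213), Col4a6 by 0.40, Col18a1 by 0.32, Col14a1 by 0.54 and Col5a1 by 0.35.

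The change over time was then compared between the schedules. The difference, repeated minus single and averaged over oil vapor and air, passed for 8 of the 34 collagens, all with a smaller fall in the repeated schedule, where 2.51% of all 15322 genes tested were positive. It was 0.63 (SE 0.12, adjusted p = 0.00112) for Col3a1, 0.36 (SE 0.07, adjusted p = 0.0017) for Col5a2, 0.42 (SE 0.11, adjusted p = 0.0168) for Col4a1, 0.46 (SE 0.13, adjusted p = 0.0235) for Col4a2 and 0.38 (SE 0.10, adjusted p = 0.0168) for Col4a5. Among type VI chains it was 0.35 (SE 0.09, adjusted p = 0.0113) for Col6a3, 0.37 (SE 0.10, adjusted p = 0.0286) for Col6a6 and 0.29 (SE 0.09, adjusted p = 0.0447) for Col6a1. The call of Col6a1 was lost without any 1 of 29 animals (adjusted p from 0.051 to 0.0746), and that of Col6a6 without animal 7 (adjusted p = 0.0518). With the rank-matched animals as a block, a fit chosen after seeing the data, 8 collagens passed, where 3.11% of all genes were positive, 7 of them among the 8 above. Col6a6 was lost there (adjusted p = 0.0502) and Col5a1 gained. Col5a1 had a difference of 0.38 (adjusted p = 0.0645) without the block and 0.39 (adjusted p = 0.0233) with it, and it also passed with DESeq2 (adjusted p = 0.0363) and limma-voom (adjusted p = 0.0444). For Col1a1 the difference was 0.59 (SE 0.23, adjusted p = 0.131), and it passed with limma-voom (0.62, adjusted p = 0.0426) and without animal 44 (0.72, adjusted p = 0.0389), which had the 451 CPM at the top of the repeated oil vapor lungs of day 1. The median of the 34 was 0.22, beside -0.01 over all genes.

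Of the lists named above, the difference passed for 4 of 11 trimming and crosslinking genes, 5 of 20 synthesis genes and 5 of 12 cell division genes, all positive. Loxl1 had 0.78 (adjusted p = 0.000326), Serpinh1 0.55 (adjusted p = 0.0058) and Cdk1, the mitotic kinase, 0.99 (adjusted p = 0.00611). Among fibril binding genes 5 were positive and 1, Dcn, negative, and 4 of 7 mesothelial markers were positive, led by Upk3b at 1.56. Of 10 fibroblast markers 3 were negative, namely Inmt at -1.24 (adjusted p = 0.000403), Dcn at -0.87 (adjusted p = 0.00112) and Pdgfra at -0.48 (adjusted p = 0.00485), and 1, Gpc3, was positive at 0.36 (adjusted p = 0.0163). Of 10 fibrogenic signal genes 3 were positive, led by the growth factor Tgfb2 at 0.47, and 1, Pdgfra, negative. Of 10 breakdown and uptake genes Mmp14 alone passed, at 0.55 (adjusted p = 0.000186). The share of all genes with a negative difference is not given here, so the negative calls stand without that background. The part of mesothelial cells, dividing cells or fibroblasts in the collagen difference was not tested.

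Air lungs of the repeated and the single schedule were also set against each other at day 1. Here 11 of 34 collagens fell and 0 rose in the repeated schedule, where 2.61% of all genes fell and 1.15% rose. Col3a1 had 2056, 2738 and 2949 CPM in the repeated schedule, against 3749, 4866 and 5195 CPM in the single schedule, without overlap, and a log2 fold change of -0.84 (SE 0.12, adjusted p = 1.18e-05). Col1a1 had 115, 169 and 239.9 CPM, against 381, 458 and 713 CPM, and fell by 1.49 (SE 0.23, adjusted p = 6.6e-05). Col5a2 fell by 0.40, Col4a1 by 0.57 and Col6a1 by 0.39, these 3 also without overlap, which 1.86% of all genes showed in this direction. The other calls were Col6a3, Col5a1, Col6a6, Col4a5, Col4a2 and Col18a1, at -0.36 to -0.51. With the rank-matched animals as a block 12 fell, where 3.09% of all genes did, among them all 11. Of 12 cell division genes 7 fell, and they summed to between 122 and 201 CPM in the repeated schedule, against 201 to 289 CPM in the single schedule. Of 10 fibroblast markers 2 rose and 0 fell, and they summed to between 1201 and 1347 CPM in the repeated schedule, against 936 to 1178 CPM in the single schedule, without overlap. The part of these cells in the difference was not tested.

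This comparison shares its single-schedule air lungs with the change over time in air, so the sets of values are not independent of each other. The number of collagens called dropped to 7 without animal 4, to 6 without animal 39 and to 7 without animal 40, and ranged up to 12 without other animals. Without animal 3, 9 or 10 the calls of Col4a5, Col4a2 and Col18a1 were lost, without animal 38 those of Col4a2 and Col18a1 and without animal 36 that of Col18a1. At day 28 the same comparison gave 0 calls in edgeR's quasi-likelihood test (2 at an unadjusted p below 0.05, beside 8.67% of all genes, and 0 with DESeq2 or limma-voom), where 0.0457% of all genes fell. Schedule, age at sampling, processing date and count table cannot be told apart here.

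Oil vapor itself was the question of the study's design, and no collagen passed in any of its 4 comparisons with air. In edgeR's quasi-likelihood test 0 of 34 collagens and 0% of all genes were called 1 day and 28 days after the single schedule and 28 days after the repeated schedule. At day 1 of the repeated schedule 0 collagens and 0.00666% of all genes were called. DESeq2 and limma-voom called 0 collagens in each. At an unadjusted p below 0.05 there were 5 of 34 collagens at day 1 of the single schedule (10.1% of all genes), 2 at its day 28 (8.21%), 1 at day 1 of the repeated schedule (9.29%) and 0 at its day 28 (4.86%). Without animal 43, 0 collagens passed at day 1 of the repeated schedule. The medians of the 34 were between 0.02 and 0.08, beside 0.01 to 0.02 over all genes.

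**Figure D4:**
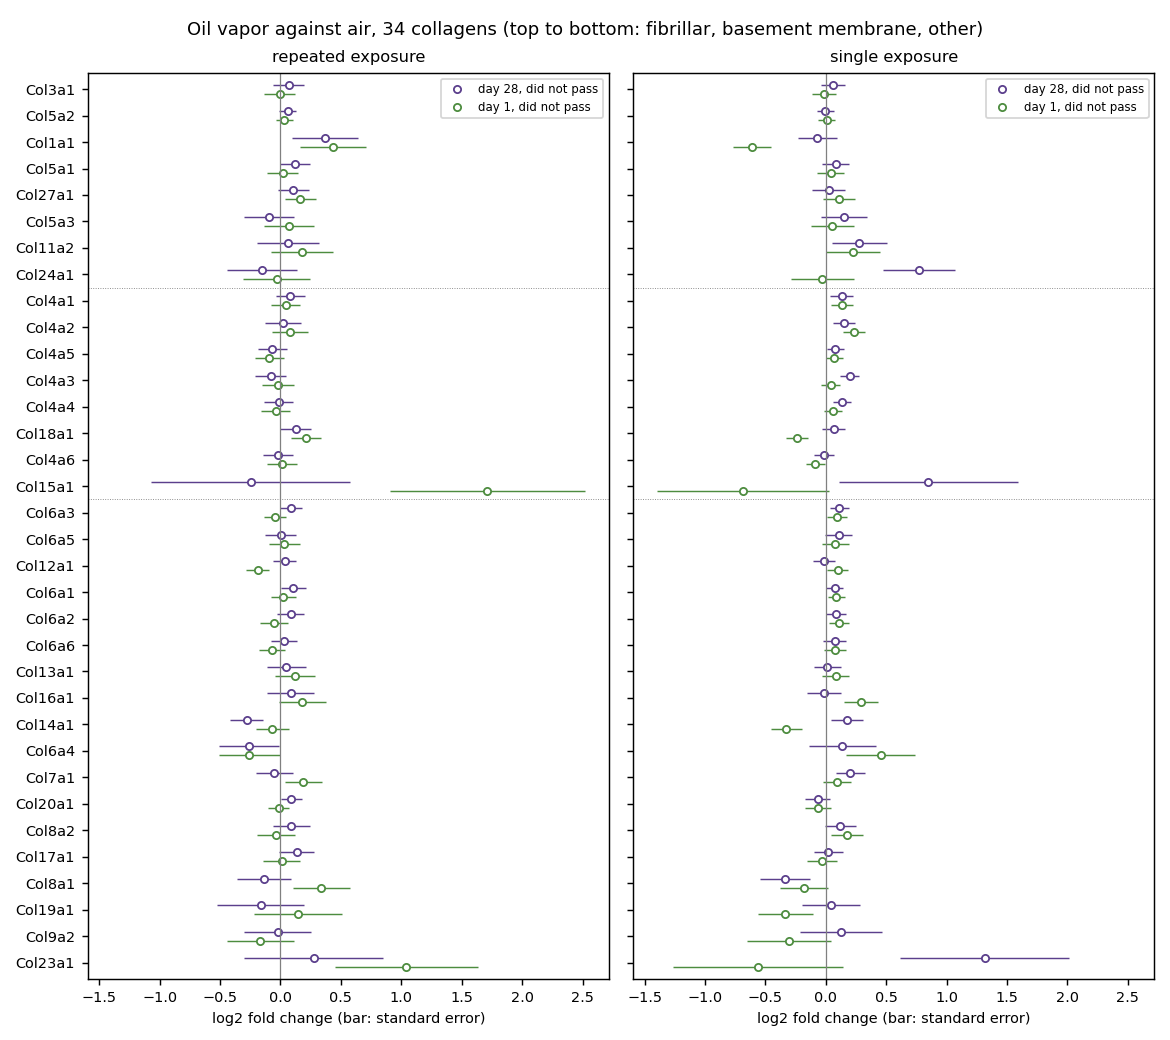
Log2 fold change of oil vapor against air with its standard error (horizontal axis) for the 34 tested collagens, day 28 in purple and day 1 in green, with the repeated schedule on the left and the single schedule on the right. All points are open because 0 of 34 passed the test in any of the 4 comparisons.

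The smallest p of a collagen was that of Col1a1 at day 1 of the single schedule. It had 240.1, 346 and 387 CPM in oil vapor lungs, against 381, 458 and 713 CPM in air lungs. Of the 6 oil vapor lungs 4 lay below every air lung, and the log2 value was -0.61 (SE 0.16, unadjusted p = 0.000667, adjusted p = 0.235). The next 4 were Col18a1 at -0.24, Col4a2 at 0.23, Col14a1 at -0.33 and Col16a1 at 0.29, with adjusted p from 0.409 to 0.488.

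At day 1 of the repeated schedule Col1a1 had the opposite sign, with 54.6, 204 and 451 CPM in oil vapor lungs, against 115, 169 and 239.9 CPM in air lungs, a log2 value of 0.43 (SE 0.27, adjusted p = 0.634). The 54.6 CPM was animal 43, and the other 5 oil vapor lungs had 170.2 to 451 CPM. The log2 value was 0.60 (adjusted p = 0.233) without animal 43 and 0.16 (adjusted p = 0.869) without animal 44. The difference between the oil vapor effects, repeated minus single, was 1.05 (SE 0.32, unadjusted p = 0.0022, adjusted p = 0.218). No collagen passed that comparison, with 4 at an unadjusted p below 0.05 (9.74% of all genes) and 0.0457% of all genes called, but Col18a1 did so without animal 43, at 0.56 (adjusted p = 0.0451). The leading members at day 1 of the repeated schedule were Col15a1 at 1.71 (SE 0.81), Col12a1 at -0.19, Col23a1, a transmembrane collagen, at 1.04, and Col18a1 at 0.21, with adjusted p from 0.525 to 0.617. Without animal 46 Col23a1 was at 0.48, and without animal 43 Col18a1 was at 0.32 and Col12a1 at -0.11.

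At day 28 of the single schedule the smallest p were those of Col24a1 at 0.77 (SE 0.30) and Col4a3 at 0.20 (SE 0.08), with adjusted p of 0.499 and 0.517. Col4a3 had 282, 298 and 332 CPM in oil vapor lungs, against 208, 249.7 and 321 CPM in air lungs. Col23a1, Col4a4 and Col7a1, the anchoring fibril collagen, followed at 1.31, 0.13 and 0.20. At day 28 of the repeated schedule Col14a1 had -0.28 (SE 0.14), Col1a1 0.37 (SE 0.28), Col6a4 -0.26, Col6a1 0.11 and Col20a1 0.09, at adjusted p of 0.98 or more. The change of the oil vapor effect from day 1 to day 28 passed for 0 collagens in either schedule, with 3 at an unadjusted p below 0.05 in the single schedule (7.83% of all genes) and 0 in the repeated schedule (7.80%), and 0 with DESeq2 or limma-voom. The difference of oil vapor effects between schedules at day 28 also passed for 0 collagens, with 2 at an unadjusted p below 0.05 (5.20% of all genes) and 0 with DESeq2 or limma-voom.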

How the data were processed

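Lung RNA of 48 rats was sequenced with 1 library per animal. The deposited values are raw counts of reads for each gene symbol, as whole numbers, in 2 tables of 24 libraries, 1 per schedule. Per the labels' protocols, 1 µg of total RNA was depleted of ribosomal RNA and made into stranded libraries. These had 12 PCR cycles and no molecular identifiers, so the counts are of reads and not of molecules. With 1 library per animal, each SD and SE includes the spread between animals. The processing notes of the submitters name Rnor_6.0 as the build and, as tools, HTSeq 0.6.1, SAMtools 1.8, HISAT2 2.1.0, Trimmomatic 0.35 and bcl2fastq 2.19. Annotation and strand setting are not given in the sources used here, and values of overlapping and antisense genes are uncertain. A count of 3, the floor that a count of 0 allows, was 0.419 to 1.95 CPM.

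CPM were computed from the deposited counts by library total. Counts were fitted in edgeR 4.0.16 (R 4.3.3) with TMM factors, filterByExpr by group and a group-means model. Contrasts within a schedule used its 24 libraries, and those between schedules all 48. The two-sided quasi-likelihood test was adjusted by Benjamini-Hochberg over all genes tested, at 0.05. Each SE is the absolute log2 value over the square root of F, and is approximate. The tests were checked on simulated data. Other settings were RLE factors, no low-count filter, DESeq2 1.42.0, limma-voom (limma 3.58.1) with sample weights, a fit of all 48 libraries or of the 12 compared alone, and each animal left out. Leaving out 4 marrow- or liver-rich libraries, and a block of animals matched by rank of number in the contrasts between schedules, were chosen after seeing the data.

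The members and gene lists were chosen with earlier results of these data known. Named were members past the threshold in any contrast, the 3 most abundant of each class, the 5 of smallest p per oil vapor contrast, and up to 4 genes of smallest p per pathway list. Other members and markers named, such as those just outside the minimum, were chosen after their values were seen. Some older symbols were matched (such as Ctgf for Ccn2). For animal 32 the description named the other table, and its title and column were followed.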

Additional observations from a re-analysis of the deposited data

Results flagged for a closer look

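Single animals far from the other 5 of their group were looked for in the 14 members called in any comparison and in the 3 class sums, 136 group values in all. Chance gives about 1 in 20 for a single value, but values of 1 library are not independent, and the class sums include these genes. The 19 such values found are therefore not set against that rate. Of them 15 were the lowest value of the repeated oil vapor group at day 1, all in animal 43. This animal had 1091 CPM of Col3a1, 502 of Col4a1, 280.4 of Col4a2, 108 of Col4a5 and 14.3 of Col4a6. It also had 76.8 CPM of Col5a1, 283 of Col5a2, 170.4 of Col6a1, 154 of Col6a2, 451 of Col6a3, 87.2 of Col6a6 and 18.9 of Col18a1. Its class sums were 1527 CPM for fibrillar, 1047 for basement membrane and 1592 for other collagens. The same library held 30019 counts of Alas2, and its TMM factor was 0.745.

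The other 4 values, each the lowest of its group, were 44.8 CPM of Col18a1 in single-schedule oil vapor lungs at day 28, 98.8 CPM of Col1a1 in single-schedule air lungs at day 28, 357 CPM of Col4a5 in single-schedule oil vapor lungs at day 1, and 817 CPM of Col6a3 in repeated oil vapor lungs at day 28.

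The change from day 1 to day 28 differed between the schedules, by the test of the difference itself, in 8 members. Repeated minus single, it was 0.63 for Col3a1, 0.36 for Col5a2, 0.35 for Col6a3, 0.38 for Col4a5, 0.42 for Col4a1, 0.46 for Col4a2, 0.37 for Col6a6 and 0.29 for Col6a1 on the log2 scale.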

How the results depend on the processing

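Over 65 gene values and 1503 combinations of gene and setting, 1441 kept their direction and side of the threshold, 62 lost the call and 0 reversed. These values are the calls of the fit reported and the 5 members of smallest p per oil vapor contrast. Calls that other members gained under another setting are not in this tally. For counts below with no share of all genes beside them, more calls among all genes cannot be told apart from more collagen calls. The count for day 28 against day 1 in repeated oil vapor lungs, 0 in the fit reported, was 1 with DESeq2 (2.07% of all genes) and 3 with limma-voom (1.55%). It was 2 with all 48 libraries (Col17a1 higher, Col14a1 lower) and 6 without the 4 marrow- or liver-rich libraries. It ranged from 0 to 5 with each animal left out. In repeated air lungs it was 2 with limma-voom (1.63% of all genes). The difference of oil vapor effects at day 1, repeated minus single, gave 1 with limma-voom (Col18a1) and 0 to 1 with each animal left out. Repeated against single air lungs at day 1 ranged from 6 to 12 with each animal left out, and from 8 without a low-count filter to 16 with limma-voom. Of those 16, Col6a4 alone was higher in the repeated schedule, at 1.00 (limma-voom, adjusted p = 0.0208). In the fit reported it was at 0.83 and did not pass (edgeR's quasi-likelihood test, adjusted p = 0.087). The difference of the time changes between schedules had 6 to 10 calls. The single-schedule counts over time ranged from 11 to 13 in oil vapor and from 13 to 15 in air lungs. The call of Col6a1 in the difference of the time changes was lost under 30 of 54 settings, with a highest adjusted p of 0.0788. The causes were not tested. The labels pair no animals, since each animal number is unique. With animals matched by rank of number within treatment and day as a block, chosen after seeing the data, the between-schedule counts were 8 for the difference of the time changes, 12 for air lungs at day 1 and 0 for air lungs at day 28 and for both differences of oil vapor effects. Library depth, lowest in animal 43, limits the members near 1 CPM most.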
